A study of Mus musculus with 24 samples.

Results

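Aminoacyl-tRNA synthetases are the enzymes that load each transfer RNA with its amino acid, the step that sets the genetic code before the ribosome reads it. The genes were taken by symbol from the deposited expression table: a capital letter followed by "ars", with or without 1 or 2 at the end, together with Farsa, Farsb and Eprs. This gave 37 genes of the 17111 in the table, 20 for cytosolic enzymes and 17, ending in 2, for mitochondrial ones. All 37 passed the filter on low values, as did 16985 genes in all.

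Cells have separate synthetases for the cytosol and for mitochondria because mitochondria translate their own genome with their own tRNAs. Gars and Kars, for glycine and lysine, are exceptions, since each gene is known to supply both compartments, and they are counted here as cytosolic. In mammals 8 of the cytosolic genes, Dars, Eprs, Iars, Kars, Lars, Mars, Qars and Rars, encode enzymes of the multi-synthetase complex, which is held together by the scaffold proteins Aimp1, Aimp2 and Eef1e1. Many cytosolic synthetase genes are known targets of ATF4, the transcription factor made when the integrated stress response slows translation. Muscle stem cells are small and quiescent in resting muscle, and enlarge and raise protein synthesis when injury activates them.

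The data were bulk RNA sequencing of mouse muscle stem cells in 24 libraries, 6 groups of 4 libraries each. The WT groups were labelled L2A-WT and the KO groups L2A-Pax7CreER, a genotype named for an inducible Cre made in Pax7-expressing cells. L2A is read here as Lamp2a, a Lamp2 splice form whose protein carries substrates into lysosomes in chaperone-mediated autophagy. Cells came from uninjured muscle (day 0) or from muscle 1 or 4 days after intramuscular cardiotoxin (50 µL at 10 µM), which kills myofibres and spares many stem cells. No group was labelled as carrying the Cre with intact Lamp2a, so an effect of the Cre allele cannot be told apart from one of Lamp2a loss. The labels give no age and leave unstated if replicate libraries are different mice. The p-values therefore measure only how far these libraries spread, which may be technical.

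Total counts were 11.58 to 22.47 M reads per library. Libraries of a group correlated at 0.852 to 0.883 at day 0, at 0.968 to 0.985 at day 1 and at 0.884 to 0.956 at day 4 on the log2 scale, so small differences were hardest to detect at day 0. Whole-gene Lamp2 cannot show the loss of 1 splice form. Its mean at day 0 was 676.3 ± 150.6 in WT and 582.1 ± 36.04 in KO (SD, 4 libraries each), followed by 415.2 ± 35.03 and 390.4 ± 71.68 at day 1 and 208.7 ± 13.08 and 221.6 ± 49.28 at day 4, with overlapping libraries of the 2 genotypes at each day. The 10 muscle stem cell and myoblast markers were present in every group, with summed values of 2090 to 2800 at day 0, 3860 to 5950 at day 1 and 1180 to 1340 at day 4. The 10 macrophage and monocyte markers summed to at most 111 at day 0 and 23.4 at day 1, but to 849 to 1350 at day 4, when all 10 had a mean of at least 1. In bulk samples, fewer cells of a type and less RNA per cell cannot be told apart.

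Levels below are the deposited values, in reads per M of a scaled library size. Differences are log2 differences of (value + 1) with their standard error (SE), from limma fitted to all tested genes of the groups compared. Adjusted p-values are Benjamini-Hochberg over those genes, two-sided, with a threshold of 0.05, and "rose", "fell", "higher" and "lower" are used of a difference only where it passed. The added 1 makes the log2 differences of low genes smaller than the true ones.

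One day after injury most cytosolic synthetases rose, in both genotypes. Their 20 values summed to 1594, 1767, 2123 and 2144 in the WT libraries of day 0 and to 4151, 4428, 5000 and 4420 in those of day 1. In KO the sums were 1382, 1161, 1247 and 922.6 at day 0 and 4171, 4274, 4370 and 3585 at day 1. Every library of day 1 lay above every library of day 0. By day 4 the sums were 1335 to 1358 in WT and 1036 to 1228 in KO, so that all WT libraries of day 4 were below those of day 0 while the KO libraries of the 2 days overlapped. Markers of other cells also moved from day 0 to day 1. In WT the sums of the 4 measured endothelial markers went from 141 to 255 down to 20.7 to 35.7, the 7 fibro-adipogenic markers from 364 to 734 down to 161 to 281, and the 7 measured myofibre markers from 6.78 to 29.4 up to 157 to 228. In KO the endothelial sums went from 82.9 to 177 down to 11.6 to 20.1. The fibro-adipogenic sums of KO went from 810 to 1130 down to 111 to 428. The myofibre sums of KO, 32.7 to 73.7 at day 0 and 12.4 to 52.5 at day 1, overlapped and did not go up as in WT. The part of these cells in the rise was not tested.

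**Figure D1:**
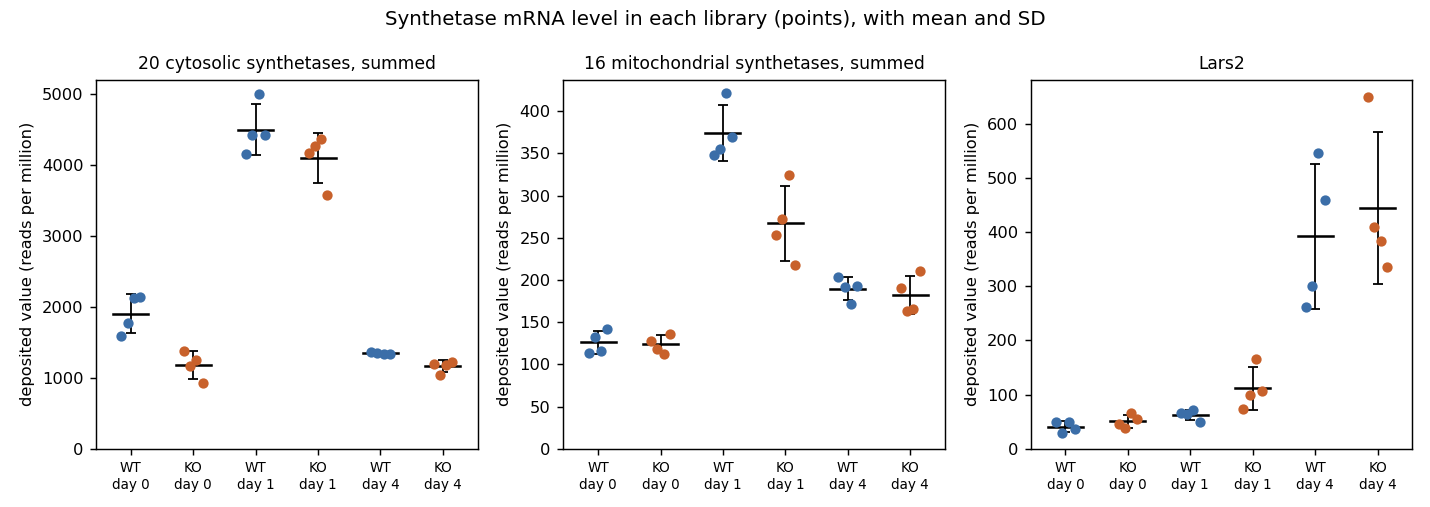
Summed level of the 20 cytosolic synthetases, of the 16 mitochondrial synthetases other than Lars2, and the level of Lars2 alone, in reads per M, for the 4 libraries of each group (points; black line, mean; error bar, SD). The cytosolic sum peaked at day 1 in both genotypes, with means of 4500 in WT and 4100 in KO, whereas Lars2 was highest at day 4.

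In WT, 16 of the 20 cytosolic genes rose from day 0 to day 1 and 1 fell, where 26.7% of all tested genes rose and 23.2% fell. The median difference was 1.75 on the log2 scale, beside -0.00666 over all genes. In KO, 18 of 20 rose and 0 fell, with a median of 2.40, where 21.3% of all genes rose and 18.6% fell. The 16 genes that rose in WT all rose in KO, where they made up 88.9% of the genes that rose; the other 2 were Cars and Iars. Outside the multi-synthetase complex, 11 of 12 cytosolic genes rose in WT and 12 of 12 in KO; within it, 5 of 8 and 6 of 8 rose. Synthetases fall into class I and class II by the fold of their catalytic domain, and Eprs has one of each. All 10 class II genes rose in both genotypes, and 6 of 9 class I genes in WT and 8 of 9 in KO.

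Mars, which charges tRNA with methionine for both initiation and elongation, changed most. Its values were 10.01, 4.197, 0.1925 and 0.4985 in WT at day 0 and 141.8, 181.8, 273.6 and 147 at day 1, a difference of 5.83 ± 0.69 (SE, n = 4; limma, adjusted p = 0.000225). In KO, 1.692, 4.544, 1.849 and 3.608 became 133.3, 139.4, 141.1 and 83.49, a difference of 5.04 ± 0.32 (limma, adjusted p = 1.89e-05). The Mars exons share 68 bases, 1.99% of their length, with the opposite-strand gene Ddit3 in the annotation of another mouse build. The labels do not state whether counting used strand, so reads there cannot be assigned. The same limit holds for 14 of the 37 members, which share exon bases with an opposite-strand gene. Among them are Iars2 (22.89% with Rab3gap2), Farsb (9.47% with Sgpp2) and Fars2 (8.72% with Nrn1). Aars also shares 14.29% with the same-strand gene Exosc6.

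Wars, the tryptophan enzyme, which is also known as a gene that interferon induces, was next. It stood at 2.373, 3.978, 0.6544 and 3.224 in WT at day 0 and at 69.95, 115.4, 130.4 and 101.2 at day 1, a difference of 4.96 ± 0.38 (limma, adjusted p = 2.81e-05). In KO it stood at 5.209, 0.6798, 8.861 and 0.5936, then at 69.02, 84.35, 104.9 and 75.15, a difference of 4.54 ± 0.60 (limma, adjusted p = 0.000579). Per kb of exon, Wars and Mars were the 2 lowest cytosolic genes of WT at day 0, with mean values of 0.742 and 1.09 per kb. The length used joins the exons of all annotated transcripts of a gene and can exceed that of its mRNA. Ranks between genes therefore depend in part on the annotation. At day 1 they reached 30.2 and 54.3 per kb, while Nars, for asparagine, was the highest gene on both days with 84.7 and 152.2 per kb.

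Phenylalanyl-tRNA synthetase is built of 2 kinds of subunit, the catalytic Farsa and its partner Farsb, and both mRNAs rose. Farsb values were 24.73, 31.06, 45.92 and 26.22 in WT at day 0 and 239.7, 230.7, 255.1 and 231.7 at day 1, a difference of 2.91 ± 0.19 (limma, adjusted p = 1.58e-05). Farsa values were 22.6, 49.96, 71.4 and 48.62, then 131.1, 140.7, 160.2 and 123.6, a difference of 1.61 ± 0.31 (limma, adjusted p = 0.00297). Per kb the subunits stood at 12.2 (Farsb) and 10.6 (Farsa) in WT at day 0, 91.3 and 30.6 at day 1, and 9.95 and 7.99 at day 4. These values rest on joined exon lengths of 2620 bases for Farsb and 4538 for Farsa. Not divided by length, the WT means at day 1 were 239.3 and 138.9. The difference between the subunits was not tested.

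The dual-compartment genes Gars and Kars both rose. Gars values of 28.86, 17.41, 28.83 and 51.68 in WT at day 0 became 231.7, 175.7, 215.9 and 172.6 at day 1 (2.70 ± 0.30; limma, adjusted p = 0.000152). In KO they went from 0.4977, 26.58, 37.84 and 19.32 to 189.6, 293.2, 330.6 and 250.2 (4.28 ± 0.91; limma, adjusted p = 0.00594), with 1 KO library of day 0 at 0.4977. Kars lay between 32.81 and 61.67 in WT at day 0 and between 233.5 and 266.9 at day 1 (2.42 ± 0.18). In KO it lay between 17.21 and 64.52, then between 222.4 and 307.5 (2.95 ± 0.36).

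**Figure D2:**
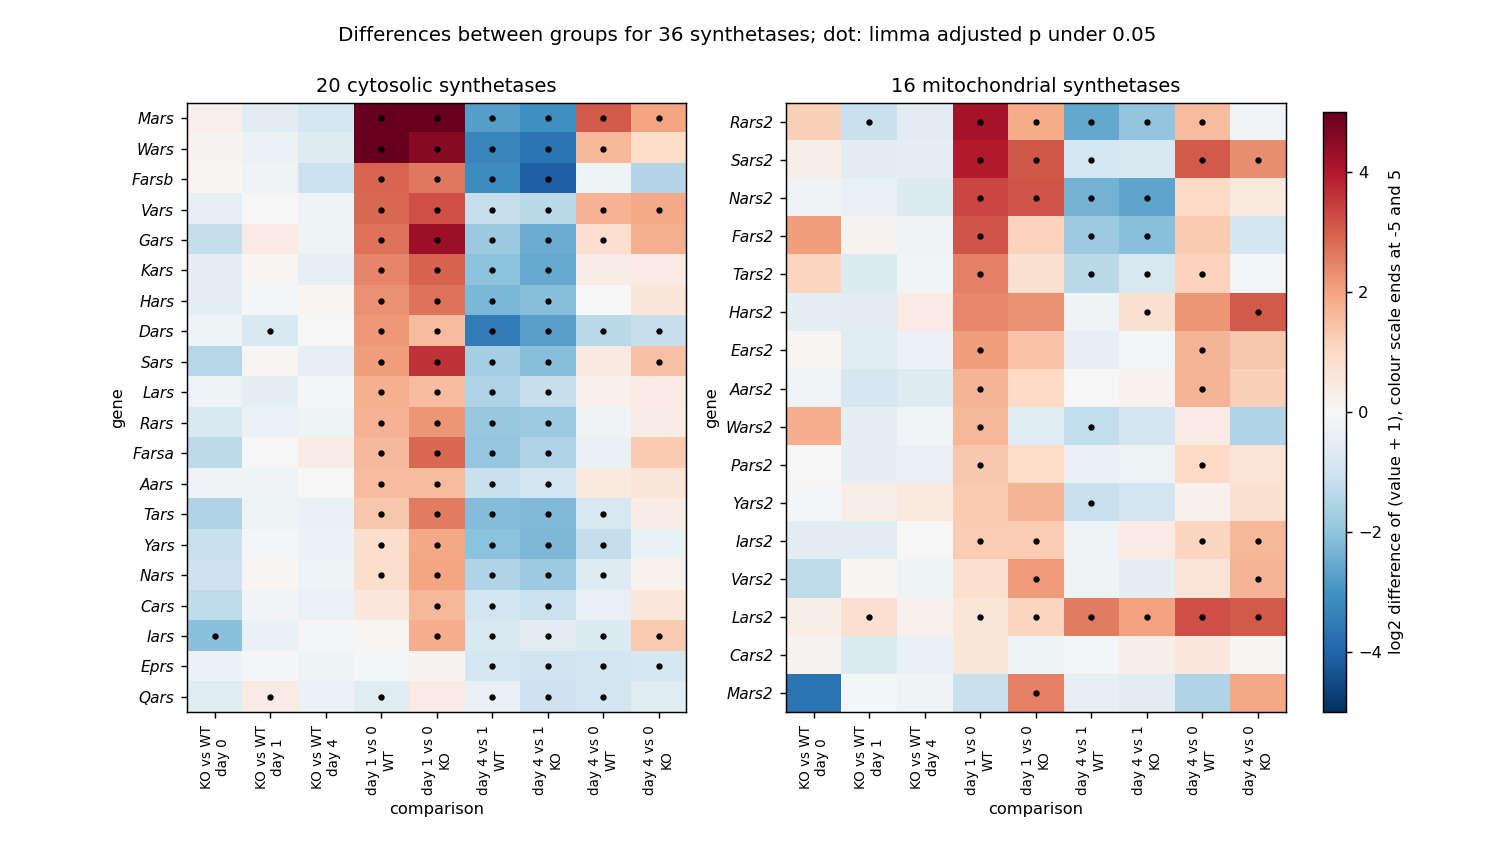
Log2 difference of (value + 1) for 36 of the 37 synthetases (rows, ordered by their difference in WT between day 1 and day 0) in 9 comparisons (columns); red is higher and blue lower in the group named before "vs", and a dot marks an adjusted p under 0.05. The cytosolic columns for day 1 against day 0 are almost wholly red with dots and those for day 4 against day 1 wholly blue with dots. The differences of Mars, 5.83 and 5.04, lie beyond the end of the colour scale.

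The exceptions to the rise were few. Eprs, the fused enzyme for glutamate and proline, did not pass in either genotype, with 377.4 to 519.5 in WT at day 0 and 384.5 to 428.4 at day 1 (-0.07 ± 0.12) and 282.7 to 470.5 and 333.4 to 427.3 in KO (0.13 ± 0.17). Qars, which charges glutamine tRNA, fell in WT from 104.2, 114.3, 137.8 and 152.1 to 81.7, 76.96, 91.45 and 81.74 (-0.60 ± 0.15; limma, adjusted p = 0.00937), and no library of the 2 days overlapped. In KO it lay between 50.2 and 123.7 at day 0 and between 98.35 and 118.6 at day 1 and did not pass (0.41 ± 0.27; limma, adjusted p = 0.256). Iars, for isoleucine, stood at 121.5 to 157.3 and 112.5 to 192.6 in WT (0.07 ± 0.18) but rose in KO, where 19.77 to 45.03 at day 0 were followed by 107.8 to 141.5 at day 1 (1.83 ± 0.25; limma, adjusted p = 0.000654). Cars, for cysteine, had a difference of 0.53 ± 0.19 in WT (limma, adjusted p = 0.0515).

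Of the 17 mitochondrial synthetases, 12 rose in WT and 7 in KO, and 0 fell, with medians of 1.71 and 1.37. Of all tested genes 26.7% rose and 23.2% fell in WT, and 21.3% rose and 18.6% fell in KO. The 16 other than Lars2 summed to 114.0 to 142.4 in WT at day 0 and 348.0 to 421.7 at day 1, and to 112.1 to 136.4 and 217.7 to 323.9 in KO. The genes that rose in both were Iars2, Lars2, Nars2, Rars2 and Sars2, 41.7% of those in WT and 71.4% of those in KO. In KO, the rises of Mars2 and Nars2 did not pass with edgeR or DESeq2, nor without 1 library for 7 (Mars2) and 5 (Nars2) of the 8 libraries. In WT, the rises of Aars2, Ears2 and Fars2 were among those that did not pass with edgeR, and that of Lars2 was lost under 10 of 20 alternatives.

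Rars2, the mitochondrial arginine enzyme, had the largest log2 difference of (value + 1) in WT, a scale on which the added 1 holds down Sars2. Its values were 2.373, 0.4744, 8.738 and 4.686 at day 0 and 76.1, 68.43, 65.89 and 77.65 at day 1 (4.16 ± 0.53; limma, adjusted p = 0.000327). In KO they were 17.82, 8.408, 6.045 and 5.16, then 38.85, 27.48, 34.55 and 30.5 (1.84 ± 0.37; limma, adjusted p = 0.00469). Sars2, for serine, had 3 reads in all 4 WT libraries of day 0 together and 21 in those of KO, so its log2 differences rest on the added 1. It reached 11.03, 21.31, 15.12 and 18.09 in WT at day 1 (3.96 ± 0.32) and 9.582, 12.84, 13.74 and 7.619 in KO (3.12 ± 0.42). Vars2, for valine, had 2 reads in the KO libraries of day 0 and stood at 4.027, 5.207, 4.354 and 1.791 at day 1 (2.12 ± 0.30; limma, adjusted p = 0.000841).

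The machinery around the synthetases was read from lists of genes. The counts below stand beside 26.7% of all tested genes that rose in WT and 21.3% in KO, and 23.2% and 18.6% that fell. All 3 scaffold genes rose in both genotypes at day 1, led by Aimp2 with 2.45 ± 0.23 in WT and 2.88 ± 0.26 in KO. Of 21 genes of tRNA processing and transport, 16 rose and 1 fell in WT and 14 rose and 0 fell in KO, among them Elac2, which trims tRNA 3′ ends, with 4.08 ± 0.57 in WT. Of 13 subunits of RNA polymerase III, the enzyme that transcribes tRNA genes, 9 rose in WT and 6 in KO, and 0 fell, with Polr3c at 4.13 ± 0.74 and 4.21 ± 0.42. Of 10 mitochondrial translation factors, 9 rose in WT and 5 in KO, led by the elongation factor Tsfm with 5.07 ± 0.54 and 3.79 ± 0.35. Of 10 charging and editing partners, 9 rose in WT and 4 in KO. Of 9 cytosolic elongation and release factors, the latter being Etf1 and Gspt1, 6 and 8 rose.

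Of 32 known ATF4 targets outside the family, 11 rose and 10 fell from day 0 to day 1 in WT, beside the 26.7% and 23.2% of all genes given above. In KO 19 rose and 2 fell, beside 21.3% and 18.6%. Asns, asparagine synthetase, had values of 0.1095 to 0.4234 in WT at day 0 and of 74.77, 101.5, 82.16 and 116.5 at day 1 (6.21 ± 0.27; limma, adjusted p = 3.71e-06). Atf4 itself had 325.6 to 407.6 in WT and 331.9 to 402.6 in KO at day 0, and 578.9 to 622.2 and 610.7 to 626.8 at day 1.

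The promoters of the synthetase genes were searched for the C/EBP-ATF response element, the site that ATF4 is known to bind, written as TGATGNAAN, and for the E-box CACGTG, a site of MYC and related factors, on both strands. Windows of 250 bases before to 50 after the gene start were available in RefSeq on GRCm38.p6 for 27 of the 37 genes. The cytosolic genes without a window were Cars, Hars, Lars, Nars, Rars, Vars and Wars. Counted by gene, the element was present in 5 of 13 cytosolic genes (38.462%), 0 of 14 mitochondrial ones and 4.496% of all 27025 genes with a window. Counted by promoter, it was present in 3.954% of all 32851. The E-box was present in 4 of 13 cytosolic genes (Aars, Farsb, Iars and Tars), in 1 of 14 mitochondrial ones (Ears2) and in 8.093% of all genes. By promoter it was present in 7.15%. A match is a description of letters and does not show binding. The stretches that hold the response element are shown because their 5 genes rose in at least 1 genotype at day 1; each is 5′ to 3′ on the strand of its gene, with the match in capitals and positions counted from the start of the gene, whose opening base is 1.
Aars, chr8:111033684-111033752, plus strand, match starting at base -113: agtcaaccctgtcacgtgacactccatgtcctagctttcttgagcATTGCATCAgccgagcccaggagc
Aars, chr8:111033805-111033866, plus strand, match starting at base 9: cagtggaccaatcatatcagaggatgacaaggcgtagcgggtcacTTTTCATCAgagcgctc
Gars, chr6:55037925-55037993, plus strand, match starting at base -31: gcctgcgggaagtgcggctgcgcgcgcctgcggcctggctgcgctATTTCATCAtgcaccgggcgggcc
Iars, chr13:49682091-49682154, plus strand, match starting at base 7: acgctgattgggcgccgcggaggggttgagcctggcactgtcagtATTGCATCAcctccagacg
Tars, chr15:11399651-11399719, minus strand, match starting at base -16: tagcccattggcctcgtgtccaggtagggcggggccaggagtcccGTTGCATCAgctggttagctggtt
Yars, chr4:129189861-129189927, plus strand, match starting at base 4: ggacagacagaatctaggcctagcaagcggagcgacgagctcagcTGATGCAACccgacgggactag

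Of these 5 genes, Aars, for alanine, had a difference of 1.58 ± 0.33 between day 1 and day 0 in WT and of 1.56 ± 0.31 in KO. Tars, for threonine, had 1.34 ± 0.21 and 2.59 ± 0.17, and Yars, for tyrosine, had 0.89 ± 0.24 and 1.92 ± 0.34. Gars is given above, and Iars passed in KO alone. Mars and Farsb, which had larger differences than these 5 in WT, had no match in their windows.

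From day 1 to day 4 all 20 cytosolic genes fell in both genotypes. The medians were -1.88 in WT and -1.97 in KO, while the medians of all tested genes were 0.221 and 0.182. Among all genes 38.3% rose and 31.1% fell in WT, and 27.7% rose and 25.7% fell in KO. Every library of day 4 was below every library of day 1 for 19 of the 20 in WT and 20 in KO, and for 28.4% and 23.9% of all tested genes. Markers of other cells moved in the same interval: from day 1 to day 4 the macrophage sums went from at most 23.4 to at least 849 and the fibro-adipogenic sums of WT from at most 281 to at least 974, while the stem cell sums went from at least 3860 to at most 1340. Their part in the fall was not tested. With quantile normalization 15 of 20 fell and 1, Qars, rose in WT, and 14 of 20 fell in KO. Under that scaling Eprs turned to 0.14 in WT and 0.28 in KO, Qars to 0.34 in WT and Iars to 0.27 in KO.

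Dars, for aspartate, fell most in WT, from 478.9, 502.4, 472.8 and 526.4 to 46.43, 38.34, 47.37 and 38.42 (-3.51 ± 0.11; limma, adjusted p = 5.41e-10). In KO it fell from 297.4, 326.6, 289.5 and 243.7 to 46.93, 44.01, 38.01 and 41.37 (-2.73 ± 0.13). The genotypes, apart at day 1, overlapped at day 4. Wars fell to 12.17, 9.344, 8.36 and 7.788 in WT (-3.32 ± 0.20) and to 5.694, 4.808, 6.932 and 5.419 in KO (-3.64 ± 0.22). Farsb fell to 19.55, 31.68, 22.49 and 30.55 in WT (-3.18 ± 0.15) and to 4.123, 10.4, 9.8 and 37.09 in KO (-4.09 ± 0.48), and Mars in KO to 15.67, 17.3, 5.771 and 20.41 (-3.08 ± 0.35). Farsa, Gars and Kars fell by 1.95, 1.86 and 2.04 on the log2 scale in WT.

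Of the 17 mitochondrial genes 7 fell in WT and 4 in KO in this interval, with medians of -0.41 and -0.438. Of all genes 31.1% and 25.7% fell. The 4 that fell in KO, Fars2, Nars2, Rars2 and Tars2, also fell in WT. Rars2 went down to 9.135, 12.71, 12.32 and 11.35 in WT (-2.57 ± 0.15; limma, adjusted p = 3.37e-08). In KO, Nars2, for asparagine, lay between 17.89 and 23.69 at day 1 and between 0.9817 and 5.808 at day 4 (-2.65 ± 0.41). Fars2, for phenylalanine, lay between 35.1 and 52.58, then between 6.386 and 16.3 (-2.08 ± 0.30). Hars2 passed in the other direction in KO, with 12.54 to 24.12 at day 1 and 24.07 to 40.89 at day 4 (0.75 ± 0.26; limma, adjusted p = 0.0304), with overlapping libraries, and it did not pass without 1 of 5 libraries or with 2 other weightings of the spread. Hars2 and Hars lie head to head and share 195 exon bases, so reads there cannot be assigned without strand.

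Lars2, the mitochondrial leucine enzyme, rose from day 1 to day 4 while the cytosolic genes fell. Its values in WT were 48.81, 28.36, 48.69 and 36.72 at day 0, 66.01, 63.24, 71.19 and 48.46 at day 1, and 260.9, 300.9, 546.7 and 459.7 at day 4. In KO they were 44.89, 38.61, 65.34 and 54.66, then 73.35, 99.8, 166.4 and 106.6, then 650.1, 408.6, 382.9 and 336.2. From day 1 to day 4 it rose by 2.59 ± 0.21 in WT (limma, adjusted p = 5.66e-07) and 2.0 ± 0.26 in KO (limma, adjusted p = 9.26e-05), and at day 4 it held more reads than the other 16 mitochondrial genes together in every library. A pair of genes tied to ribosomal RNA were high at day 4 as well. The mitochondrial large ribosomal RNA mt-Rnr2 stood at 8775 to 23210 at day 0, 2194 to 8076 at day 1 and 45510 to 146500 at day 4. Gm42418, a predicted gene known to collect ribosomal RNA reads, stood at 17.79 to 56.43 at day 4 and at most 7.411 before. Within day 4, the 2 WT libraries with the higher Lars2 also had the higher Gm42418, with 33.53 and 28.77 beside 21.34 and 17.79, and the 4 KO libraries had the same order for both. The KO libraries of day 4 had this order for mt-Rnr2 too, with 146500, 100400, 98350 and 94490 in libraries 1 to 4. The order did not hold for mt-Rnr2 in WT, where the 2 libraries with the higher Lars2 had the lower mt-Rnr2, 48460 and 45510 beside 58680 and 58560. At day 1 in KO the highest Lars2, 166.4, stood beside the lowest Gm42418, 0.704. The part of these RNAs in the Lars2 values was not tested.

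**Figure D3:**
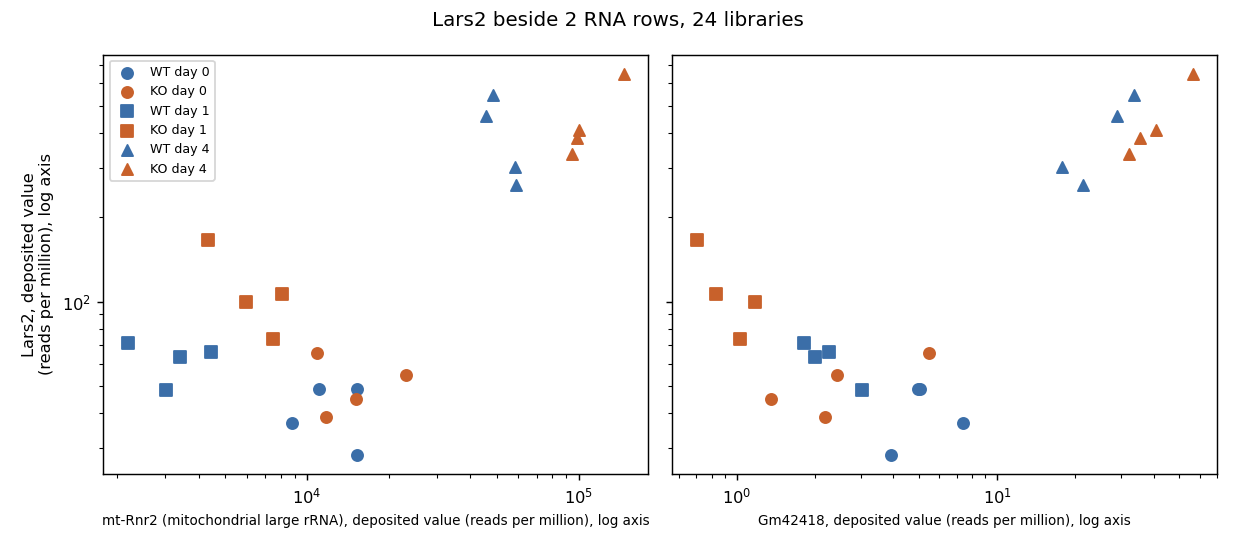
Lars2 against mt-Rnr2 (left) and against Gm42418 (right) in the 24 libraries, in reads per M on log axes; colour gives the genotype and shape the day. The 8 libraries of day 4 lie apart at the top right of both panels, with Lars2 between 260.9 and 650.1.

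Compared with uninjured muscle, at day 4 in WT 4 cytosolic genes had a higher level and 7 a lower one, with a median of -0.225, while 9 mitochondrial genes were higher and 0 lower, with a median of 1.15. Of all tested genes 22.8% were higher and 17.2% lower, with a median of 0.232. In KO 4 cytosolic genes were higher and 2 lower, and 5 mitochondrial genes were higher and 0 lower, where 13.8% of all genes were higher and 13.3% lower. The KO medians were 0.5 for the cytosolic and 1.14 for the mitochondrial genes, beside 0.18 over all genes. The cytosolic median thus had opposite signs in the 2 genotypes. The macrophage markers given above stood apart between these days too, and their part in the differences was not tested. In WT, 10 members passed without library 1 of day 4 in place of 20, and 11 with quantile normalization, among them 2 lower cytosolic genes. The 9 higher mitochondrial genes became 2 without that library, 3 with quantile normalization and 5 with edgeR or DESeq2, and 1 mitochondrial gene was lower under each of the last 3.

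Mars stayed above its level of day 0 at day 4, with 23.54, 27.03, 26.69 and 24.8 in WT (3.06 ± 0.67; limma, adjusted p = 0.00491) and a difference of 1.96 ± 0.53 in KO (limma, adjusted p = 0.0205). Vars, for valine, had 6.747 to 14.78 in WT at day 0 and 28.85 to 41.92 at day 4 (1.73 ± 0.31), and 4.214 to 12.06 and 23.38 to 38.84 in KO (1.91 ± 0.40). Wars (1.64 ± 0.45) and Gars (0.85 ± 0.29) were the other 2 higher ones of WT, and Gars lost its call under 12 of 20 alternatives. The 7 lower cytosolic genes of WT were Dars, Eprs, Iars, Nars, Qars, Tars and Yars. Of these Iars was higher in KO, with 76.8 to 85.77 at day 4 beside 19.77 to 45.03 at day 0. Dars (-1.35 ± 0.25 in WT, -1.14 ± 0.23 in KO) and Eprs (-0.96 ± 0.12 and -0.87 ± 0.19) were lower in both genotypes, but with quantile normalization Eprs had 0.12 and 0.05, and in WT Nars had 0.42 and Iars 0.03. Sars was higher in KO at day 4, with 47.96 to 63.1 beside 12.99 to 28.57 at day 0 (1.48 ± 0.31; limma, adjusted p = 0.00563). Lars2 and Sars2 led the mitochondrial genes, with 3.21 ± 0.27 and 3.07 ± 0.35 in WT and 3.08 ± 0.24 and 2.32 ± 0.52 in KO.

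Between the genotypes in uninjured muscle, the cytosolic sums of day 0, 1594 to 2144 in WT and 922.6 to 1382 in KO, did not overlap. The mean unlogged value of KO was under that of WT for 18 of 20 genes, and the log2 difference was positive for 3 of 20. The share of all genes with a lower KO mean was not counted. The 20 genes were read in the same libraries and are not replicates of each other. The median log2 difference was -0.549, beside -0.000162 over all genes. Only Iars passed the test, where 0.2% of all genes were higher and 0.2% lower (34 and 34 genes, or 45 and 25 with quantile normalization). DESeq2 called 5 members, where it called 380 genes higher and 359 lower in all. With the spread taken from all 24 libraries limma called 11 members, where it called 819 genes higher and 837 lower. Of the 37 members 9 had an unadjusted p under 0.05, as did 1998 genes in all. Of the 17 mitochondrial genes 0 passed with limma as set out above or with edgeR, and 2 had an unadjusted p under 0.05. DESeq2 called 1, limma with group weights 1 and limma with the shared spread 3.

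Iars values at day 0 were 129.6, 121.5, 157.3 and 154.6 in WT and 45.03, 31.45, 37.9 and 19.77 in KO, with every KO library below every WT one (-2.09 ± 0.26, 95% interval -2.67 to -1.50; limma, adjusted p = 0.0205). The call did not hold without WT library 1, 2, 3 or 4 or without KO library 3, although the difference stayed between -2.25 and -1.81 under all alternatives. Tars, Sars, Nars, Rars and Yars also had every KO library below every WT one and did not pass. Of all tested genes 3.74% had this order and 3.23% the opposite one. Wars2 was the 1 member with the opposite order, at 1.27 to 2.591 in WT and 4.113 to 21.5 in KO, and it did not pass. Tars values were 68.14, 115.5, 129.4 and 95.82 in WT and 41.64, 28.87, 39.78 and 28.72 in KO (-1.51 ± 0.25; limma, adjusted p = 0.0526), and Tars was called with DESeq2. Nars values were 318.3, 271.9, 428.1 and 456.3 in WT and 159.5, 155.4, 241.3 and 158 in KO (-1.04 ± 0.22; limma, adjusted p = 0.0983).

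Markers of other cells stood apart between the genotypes at day 0 in the same libraries. The 7 markers of fibro-adipogenic progenitors summed to 364 to 734 in WT and 810 to 1130 in KO, the 6 of smooth muscle and pericytes to 83.4 to 183 and 252 to 666, and the 7 measured ones of myofibres to 6.78 to 29.4 and 32.7 to 73.7, while the stem cell markers summed to 2090 to 2750 and 2540 to 2800. Pdgfra and Myh1 had no read in WT, and Myh4 had none in KO. The part of other cells in the lower KO values was not tested.

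Of the 20 cytosolic genes at day 1, 1 (Qars) was higher in KO and 1 (Dars) lower, with a median of -0.12. Of the 17 mitochondrial ones 1 (Lars2) was higher and 1 (Rars2) lower, with a median of -0.536 beside -0.0292 over all genes. Of all tested genes 12.8% were higher and 10.5% lower. With quantile normalization 6 cytosolic genes were lower in KO and 1 higher. The 16 mitochondrial genes other than Lars2 summed to 348.0 to 421.7 in WT and 217.7 to 323.9 in KO, without overlap.

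Rars2 was the mitochondrial gene with the lower level, at the values of day 1 given above (-1.12 ± 0.12, 95% interval -1.40 to -0.83; limma, adjusted p = 0.000665). Dars was the lower cytosolic gene (-0.78 ± 0.10, 95% interval -0.998 to -0.56; limma, adjusted p = 0.00103), and its call held under all 20 alternatives. Qars was higher, with 114.5, 113, 118.6 and 98.35 in KO beside 81.7, 76.96, 91.45 and 81.74 in WT (0.42 ± 0.09; limma, adjusted p = 0.0122). For these 3 genes no library of 1 genotype overlapped the other, and the same held for Lars2, Mars and Tars2. Counted by location, 1 cytosolic gene had every KO library above every WT one and 2 had the reverse. Of the mitochondrial genes 1 and 2 did. Of all tested genes 13.9% had every KO library above and 12.3% below. Lars2 was higher in KO (0.78 ± 0.23; limma, adjusted p = 0.0419), but 7 of the 8 ways to leave out 1 library ended that call. Rars2 and Qars did not pass in a fit that took 1 spread from all 24 libraries.

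**Figure D4:**
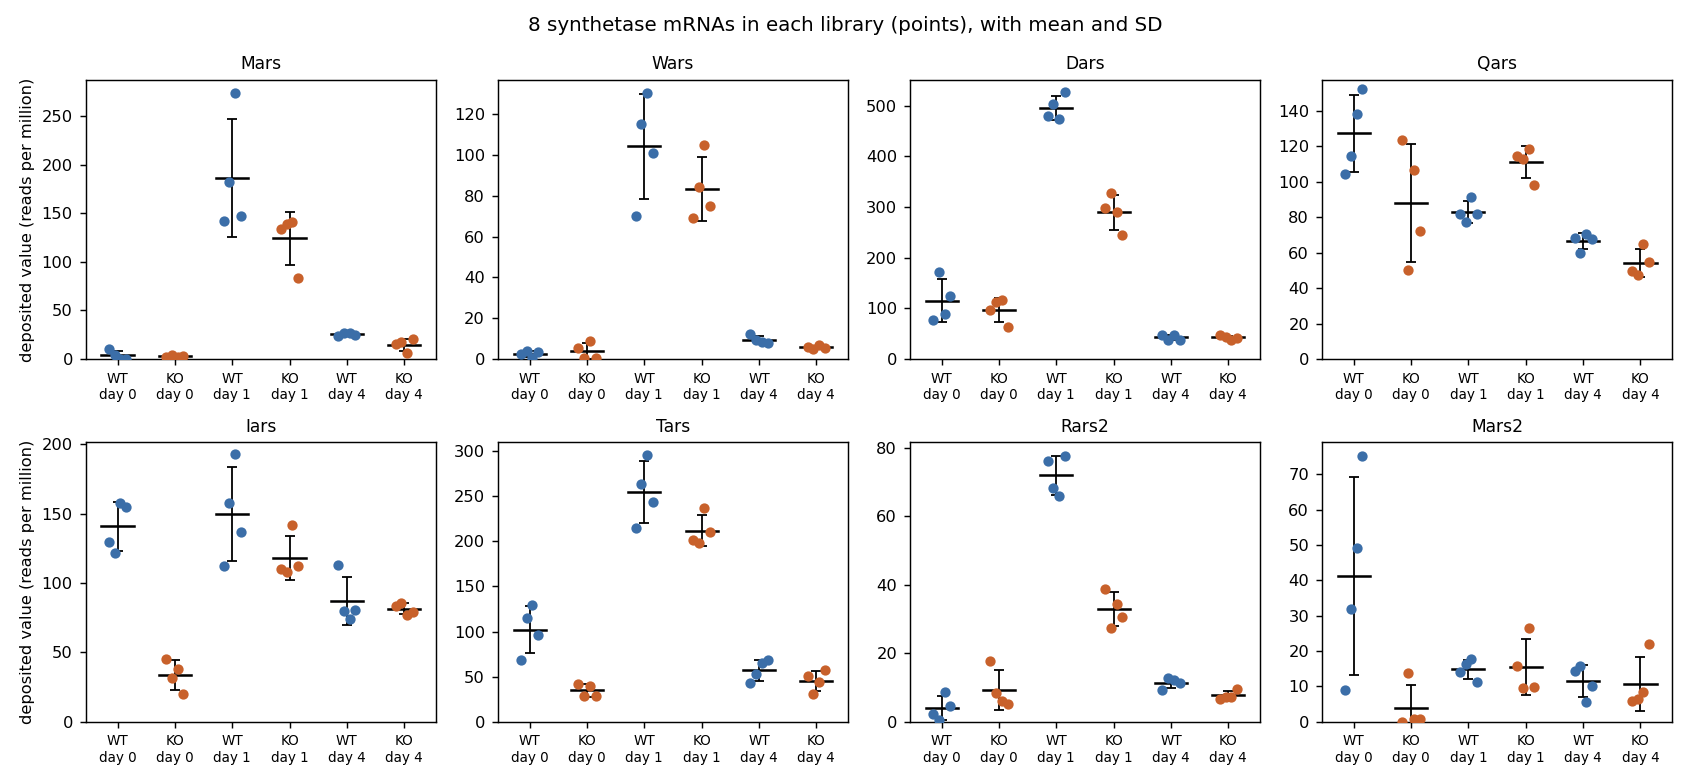
Values of 8 synthetase mRNAs in the 4 libraries of each group (points; black line, mean; error bar, SD), in reads per M from 0. Dars and Rars2 were lower in KO than in WT at day 1, Qars was higher, and Iars and Tars were apart at day 0.

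The list counts of this paragraph stand beside 12.8% of all tested genes that were higher in KO at day 1 and 10.5% that were lower. The median of all genes was -0.0292. Of the 32 ATF4 targets, 13 were higher in KO at day 1 and 0 lower, with a median of 0.421. Gdf15, a secreted stress signal, had 18.58, 13.51, 14.98 and 15.14 in WT and 379.1, 390.3, 454 and 427.1 in KO (4.65 ± 0.11; limma, adjusted p = 1.67e-07). Slc7a5, an importer of large neutral amino acids, had 15.72, 16.86, 17.56 and 25.23 in WT and 50.19, 57.04, 65.99 and 55.58 in KO (1.57 ± 0.16), and Vldlr was higher by 1.56 ± 0.16. Asns did not pass (-0.00 ± 0.23). Of 9 cytosolic elongation and release factors 8 were higher in KO, among them Eef2 with 1.00 ± 0.13 and the release factor Gspt1 with 1.005 ± 0.137. By contrast 4 of 10 mitochondrial translation factors were lower and 0 higher, among them Mtrf1 with -1.43 ± 0.34 and Mtif2 with -1.05 ± 0.26. Of 10 charging and editing partners 3 were lower, and Eef1e1 was the 1 scaffold gene that passed (-0.61 ± 0.13). At this day 3 sets of markers of other cells did not overlap between the genotypes: myofibre markers summed to 157 to 228 in WT and 12.4 to 52.5 in KO, endothelial ones to 20.7 to 35.7 and 11.6 to 20.1, and those of smooth muscle and pericytes to 194 to 263 and 270 to 377. Their part in these differences was not tested.

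**Figure D5:**
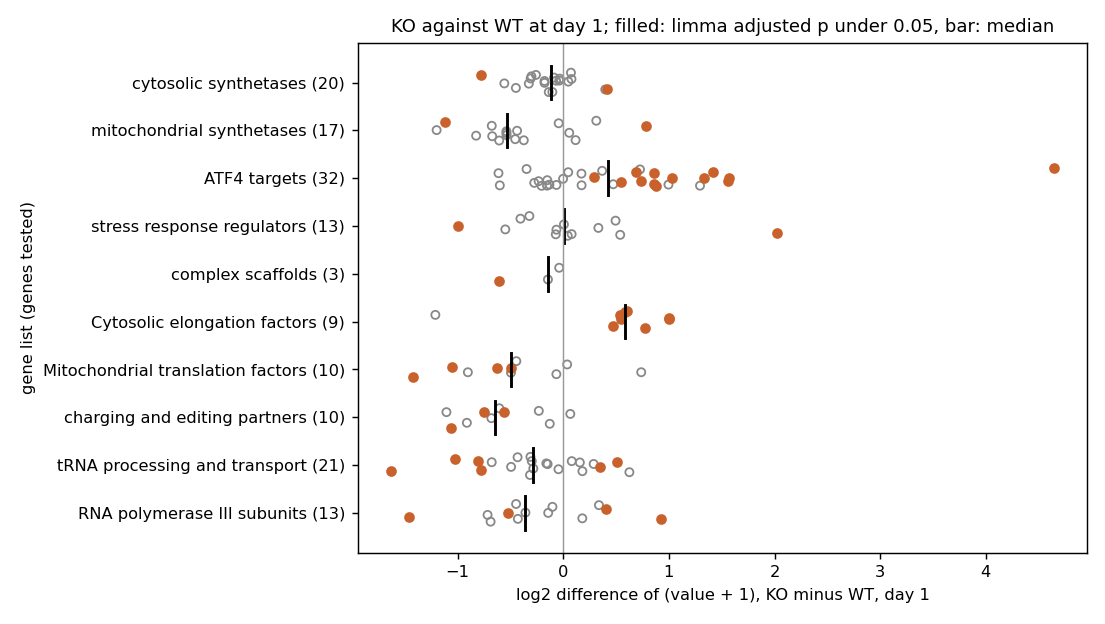
Log2 difference of (value + 1) between KO and WT at day 1 for each gene of the synthetases and of 8 lists of related genes; filled points passed the limma test at an adjusted p under 0.05 and the bar is the median. The ATF4 targets and the cytosolic elongation factors have medians of 0.421 and 0.587, and the mitochondrial synthetases and mitochondrial translation factors -0.536 and -0.494. The list of elongation factors also holds the release factors Etf1 and Gspt1.

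At day 4 none of the 37 members passed between the genotypes with limma, and the count was 0 with edgeR and DESeq2 too; 2 had an unadjusted p under 0.05 in limma. The background shares were 0.459% higher and 0.294% lower in KO. The medians were -0.231 for the cytosolic and -0.209 for the mitochondrial genes, beside -0.0303 over all genes. The cytosolic sums did not overlap, with 1335 to 1358 in WT and 1036 to 1228 in KO, and Mars, Sars and Wars had every KO library below every WT one, as did 3.86% of all tested genes. The macrophage markers did not overlap either, with sums of 1000 to 1350 in WT and 849 to 995 in KO, and their part in these values was not tested. Dars, apart at day 1, had a difference of 0.00 ± 0.15 (95% interval -0.32 to 0.32). Of the ATF4 targets 3 were lower in KO and 0 higher: Asns, with 29.2, 26.03, 32.26 and 34.34 in WT and 5.301, 3.082, 1.263 and 2.109 in KO (-3.09 ± 0.35; limma, adjusted p = 0.00215), Trib3 (-2.04 ± 0.36) and Ddit3 (-1.05 ± 0.16).

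The change of the genotype difference between days was tested directly, on libraries that the comparisons above also use. The difference between day 1 and day 0 was greater in KO than in WT for 4 cytosolic genes and smaller for 0, and of the mitochondrial genes it was greater for 1 and smaller for 2. Of all genes 6.17% were higher and 3.08% lower in this test (1048 and 523 genes, or 1168 and 1007 with DESeq2). It was greater in KO by 1.76 ± 0.32 for Iars (limma, adjusted p = 0.00233), 1.49 ± 0.35 for Sars, 1.25 ± 0.27 for Tars and 1.11 ± 0.24 for Nars. These genes had KO libraries below all WT ones at day 0 and overlapping libraries at day 1. Mars2 (3.60 ± 1.03; limma, adjusted p = 0.0384) stood at 8.84, 32.01, 49.08 and 75.08 in WT at day 0 and at 0.03318, 13.7, 0.8005 and 0.8676 in KO, and at 11.35 to 17.7 and 9.527 to 26.41 at day 1. Rars2 (-2.32 ± 0.66, limma, adjusted p = 0.0392) had a smaller difference in KO than in WT. For Wars2 (-2.27 ± 0.63, limma, adjusted p = 0.035) the means of the 2 genotypes went in opposite directions, but the change in KO alone did not pass. Its mean log2 of (value + 1) went from 1.48 to 3.154 in WT and from 3.293 to 2.7 in KO. At day 0 Wars2 stood at 1.27 to 2.591 in WT and 4.113 to 21.5 in KO, and at day 1 at 6.584 to 9.82 and 3.181 to 8.471. The calls of Mars2, Rars2 and Wars2 were lost under 16, 13 and 11 of 28 alternatives, among them leaving out any 1 WT library of day 1. Nars lost its call with quantile normalization, and Iars, Sars and Tars kept theirs under all 28.

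From day 1 to day 4 the genotype difference changed in 2 members. It rose for Dars (0.78 ± 0.17; limma, adjusted p = 0.00587) and fell for Qars (-0.72 ± 0.18; limma, adjusted p = 0.0154), the reverse of their differences at day 1. Of all genes 2.64% were higher and 6.33% lower in this test (448 and 1075 genes, or 854 and 1118 with DESeq2). The fit with 1 spread for all 24 libraries called neither. Of the 32 ATF4 targets 11 were lower and 0 higher, led by Gdf15 with -4.43 ± 0.27.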

How the data were processed

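RNA was sequenced from 24 muscle stem cell libraries which per the labels' protocols were built from low RNA input with SMART-Seq v4 chemistry. The submitters' processing notes name STAR, RSEM, limma and the mouse build mm39, without versions. The deposited signal is a normalized value: each count plus 0.5, divided by a scaled library size in units of M reads. All values gave whole reads within 0.02, so the count tools could be run as alternatives. From these values log2(value + 1) was fitted with limma 3.58.1 (trend, R 4.3.3), using only the libraries of the groups compared and genes reaching a value of 1 in 4 or more of the 24 libraries. Benjamini-Hochberg adjustment ran over all 16985 genes tested, with a two-sided threshold of 0.05, in 11 comparisons. edgeR 4.0.16, DESeq2 1.42.0, other filters, pseudocounts, scalings and weightings, and leaving out each library were alternatives.

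The members and gene lists were chosen with earlier results of these data known. Genes were named by a rule on the largest differences past the threshold, with Gars, Kars, Eprs, Farsa, Farsb, Wars and Lars2 always named. The fit was tested on simulated data. The values of 1 mitochondrial gene enter the counts and sums but are not reported here. Per-kb values use exon lengths of GENCODE M21, joined over all transcripts of a gene, and promoters are from RefSeq GRCm38.p6. Both are of another build than the files.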

Additional observations from a re-analysis of the deposited data

Results flagged for a closer look

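In 17 of 222 sets of 4 libraries (37 genes in 6 groups, 7.66%), the highest or lowest library lay far from the other 3. The cutoff gives about 5% by chance for normally distributed values. It was applied to unlogged values, some of them of few reads, so that rate need not hold here. In uninjured KO muscle, library 2 stood apart for 3 genes, with Mars2 at 13.7 (others at most 0.8676), Nars2 at 18.5 (at most 0.6304) and Sars2 at 1.324 (at most 0.2283). In the same group Aars2 was at 14.5 in library 1 (others at most 0.04566) and Nars at 241.3 in library 3 (others 155.4 to 159.5). In uninjured WT muscle, Nars2 was at 11.47 in library 4 (others at most 1.066), Rars at 78.07 in library 4 (others 65.4 to 66.69) and Pars2 at 0.1155 in library 3, which is 1 read.

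At day 1, library 3 of KO was high for Iars at 141.5 (others 107.8 to 112) and Vars at 147.3 (others 58.31 to 64.34). Library 4 of KO was low for Mars at 83.49 (others 133.3 to 141.1) and high for Yars2 at 20.99 (others 10.98 to 12.65). In WT, Fars2 was at 44.89 in library 2 (others 41.76 to 42.06) and Vars2 at 8.181 in library 3 (others 2.179 to 2.803). At day 4, Iars was at 112.8 in WT library 1 (others 74.38 to 80.5), Mars2 at 21.97 in KO library 4 (others 5.93 to 8.298) and Pars2 at 4.479 in KO library 2 (others at most 0.1707).

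The difference between the genotypes changed from day 0 to day 1, on the log2 scale and by the limma test, by 1.76 for Iars, 3.60 for Mars2, 1.11 for Nars, 1.49 for Sars, 1.25 for Tars, -2.32 for Rars2 and -2.27 for Wars2. It changed from day 1 to day 4 by 0.78 for Dars and -0.72 for Qars.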

How the results depend on the processing

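Counts are of the 37 synthetases called. For KO against WT at day 0 the count of 1 became 11 with a spread shared by all 24 libraries, 5 with group weights, 2 with library weights, 3 with a stricter filter, 5 with DESeq2 and 0 to 1 without 1 library (0 without WT library 2, 3 or 4 or KO library 3). At day 1 the count of 4 became 1 with the shared spread, 7 with group weights, 9 with quantile normalization, 7 with DESeq2 and 3 to 6 without 1 library; at day 4 it was 0 under every alternative run. For day 4 against day 0 the WT count of 20 became 11 with quantile normalization and 10 to 19 without 1 library (10 without WT library 1 of day 4), and the KO count of 11 became 17 with the shared spread. The count for the genotype difference between day 1 and day 0, 7, became 4 to 7 without 1 library (4 without any WT library of day 1, or KO library 1 or 4 of day 1), and that between day 4 and day 1, 2, became 0 with the shared spread. The cause was not tested.

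Of the genes called, those that kept their call under every alternative were 23 of 29 for day 1 against day 0 in WT and 21 of 25 in KO, and 20 of 28 for day 4 against day 1 in WT and 18 of 26 in KO. Quantile normalization moved the median of all genes between day 4 and day 1 from 0.221 to -0.00364 in WT and from 0.182 to 0.00572 in KO. It reversed 8 differences: between day 4 and day 1 Eprs to 0.14 and Qars to 0.34 in WT and Eprs to 0.28 and Iars to 0.27 in KO, and between day 4 and day 0 Eprs to 0.12, Iars to 0.0289 and Nars to 0.42 in WT and Eprs to 0.052 in KO. Same-numbered libraries of different groups deviated together at r over 0.1 in 1 of 60 pairs, so the numbers were not taken to pair samples. With a replicate block the count of 1 at day 0 became 0, where Iars had an adjusted p of 0.263 (limma), and the other counts stayed within 1.5 times the main ones. At day 0 the spread between libraries limits what could be detected, and for Sars2, Pars2 and Vars2 the depth does.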
